A study of Mus musculus with 4 samples.

Results

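The genes examined here encode the cytokines IL-2 and IL-15 and the chains of their receptors: Il2ra, Il2rb, Il2rg, Il15ra, Il15 and Il2. An accessible region was counted for 1 of these 6 genes where no other protein-coding gene had its span nearer. This gave 49 of the 91266 accessible regions deposited for the series. The data came from ATAC-seq, in which a transposase cuts and tags open chromatin, on natural killer (NK) cells of spleen origin from wild-type C57BL/6 mice. NK cells are innate lymphocytes that kill infected and transformed cells. All cells were cultured with IL-15 for 72 hours, either at a high dose (HD, 2 samples) or at a low dose (LD, 2 samples), with about 75000 cells per replicate. The labels give no concentration for either dose, no culture without IL-15, and do not say how the cells were purified or from how many mice they came. The design text names the comparison of the 2 doses as the study's question.

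IL-2 and IL-15 signal through the same pair of receptor chains, the beta chain encoded by Il2rb and the common gamma chain encoded by Il2rg. Each cytokine also has a private alpha chain, Il2ra for IL-2 and Il15ra for IL-15, which raises the affinity of binding. IL-15 is usually presented to NK cells by IL-15 receptor alpha on neighbouring cells, and it keeps NK cells alive and dividing. Inside the cell the receptor acts through the kinases JAK1 and JAK3 and the transcription factor STAT5.

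The deposited tables hold positions only. They consist of all accessible regions and of the authors' 2 lists of regions that differed between the doses, named up and down. The reference dose of these names is not stated, so neither list is assigned to a dose here. There is no value per sample, so no level, fold change, replicate error or sequencing depth can be given, and the calls could not be retested. A region in neither list is called unlisted, which does not show that its accessibility was equal at both doses. The labels name genome build mm10, and all positions below are 1-based on that build, called GRCm38 in the gene table.

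At 4 of the 6 genes a promoter table from RefSeq (GRCm38.p6) gave the start of transcription, and at each of them an accessible region covered it. Il2rb and Il15 had no entry. The bases just before the gene are shown for these 4 genes because an accessible region covered each of these starts. The region of Il15ra began inside the gene, so the bases shown for it lie outside it. They are written 5′ to 3′ on the gene's own strand and stop where the gene's span begins. Capitals mark short cores of known binding motifs, on either strand: CCGGAA (ETS factors), GGAAAA (NFAT), GGGANTNC (NF-kB) and TATAAA (the TATA box). These 4 cores were chosen after the sequences had been seen.
Il2rg, chrX:101268256-101268505, minus strand: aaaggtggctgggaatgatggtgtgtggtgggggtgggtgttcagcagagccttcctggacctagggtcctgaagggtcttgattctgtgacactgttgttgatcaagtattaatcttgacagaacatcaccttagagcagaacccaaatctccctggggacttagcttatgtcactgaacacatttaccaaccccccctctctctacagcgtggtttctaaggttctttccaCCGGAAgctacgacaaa
Il2ra, chr2:11642542-11642791, plus strand: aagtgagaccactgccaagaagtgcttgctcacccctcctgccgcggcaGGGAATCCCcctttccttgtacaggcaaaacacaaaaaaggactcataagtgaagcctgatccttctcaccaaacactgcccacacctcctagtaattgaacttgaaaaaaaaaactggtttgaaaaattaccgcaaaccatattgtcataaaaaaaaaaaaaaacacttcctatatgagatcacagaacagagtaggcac
Il15ra, chr2:11705043-11705171, plus strand: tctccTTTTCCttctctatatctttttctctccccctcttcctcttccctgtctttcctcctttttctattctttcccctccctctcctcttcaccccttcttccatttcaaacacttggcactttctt
Il2, chr3:37125955-37126204, minus strand: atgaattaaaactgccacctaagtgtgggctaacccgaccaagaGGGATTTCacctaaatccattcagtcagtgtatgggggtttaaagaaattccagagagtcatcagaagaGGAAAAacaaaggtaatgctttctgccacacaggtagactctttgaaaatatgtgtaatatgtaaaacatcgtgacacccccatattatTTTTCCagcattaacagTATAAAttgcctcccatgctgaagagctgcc

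In these sequences the ETS core of Il2rg begins 17 bases before the start. The NF-kB core of Il2ra begins 201 bases before the start, where it overlaps a second match on the opposite strand. At Il2 the NF-kB core begins 206, the NFAT cores 137 and 48, and the TATA box 31 bases before the start. The NFAT core of Il15ra begins 245 bases before the first of its 2 annotated starts, outside the accessible region. An ETS core begins 104 bases before the same start, past the bases shown and inside that region. Over the 32851 windows of 300 bases in the promoter table, 14.9% held CCGGAA, 23.4% GGAAAA, 13.9% GGGANTNC and 13.6% TATAAA, so each of these cores is common. The 7 longer motifs set for the search matched 1 of the 5 member windows. They were TTCNNNGAA (the STAT element), ACCGGAAGT (ETS), TGTGGTTT (RUNX), TGANTCA (AP-1), AGGTGTGA (T-box), GGGACTTTC (part of an NF-kB site) and GGAAAATT (NFAT-like). The match was the AP-1 motif, 30 bases before the second start of Il15ra, and 7.81% of all windows held that motif. The STAT element was in 8.30% of all windows. The other 5 motifs were each in 0.353% to 1.78% of all windows. A match is one of letters and says nothing of binding. G+C made up 42.0% of the window of Il2 and 42.7% of that of Il2ra, against a median of 52.7% over all windows. It was 50.3% for Il2rg and 54.0% and 58.7% for the 2 windows of Il15ra.

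Among the 49 regions, 2 were in the authors' down list and 0 in the up list. The 2 down regions belonged to the chains that both receptors share, 1 at Il2rb and 1 at Il2rg. Neither alpha chain and neither cytokine had a listed region. The split does not separate the groups: 2 of 15 regions of the shared chains gives a 95% Wilson interval of 3.74 to 37.9%, while 0 of 16 at the alpha chains allows up to 18.8% and 0 of 18 at the cytokines up to 16.7%. The down regions made up 4.08% of the 49 (95% Wilson interval 1.13 to 13.7%), against 1.40% of all 91266 regions. A count of 0 up regions among 49 allows a share of up to 6.12%, against 4.21% of all regions, so a share like that of all regions cannot be told from none. Regions in either list were 5.61% of all regions. Intervals and limits cover counting error only and treat regions as independent, which neighbouring regions are not. No test of the member genes was made, because they were chosen with earlier results of these data known.

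**Figure D1:**
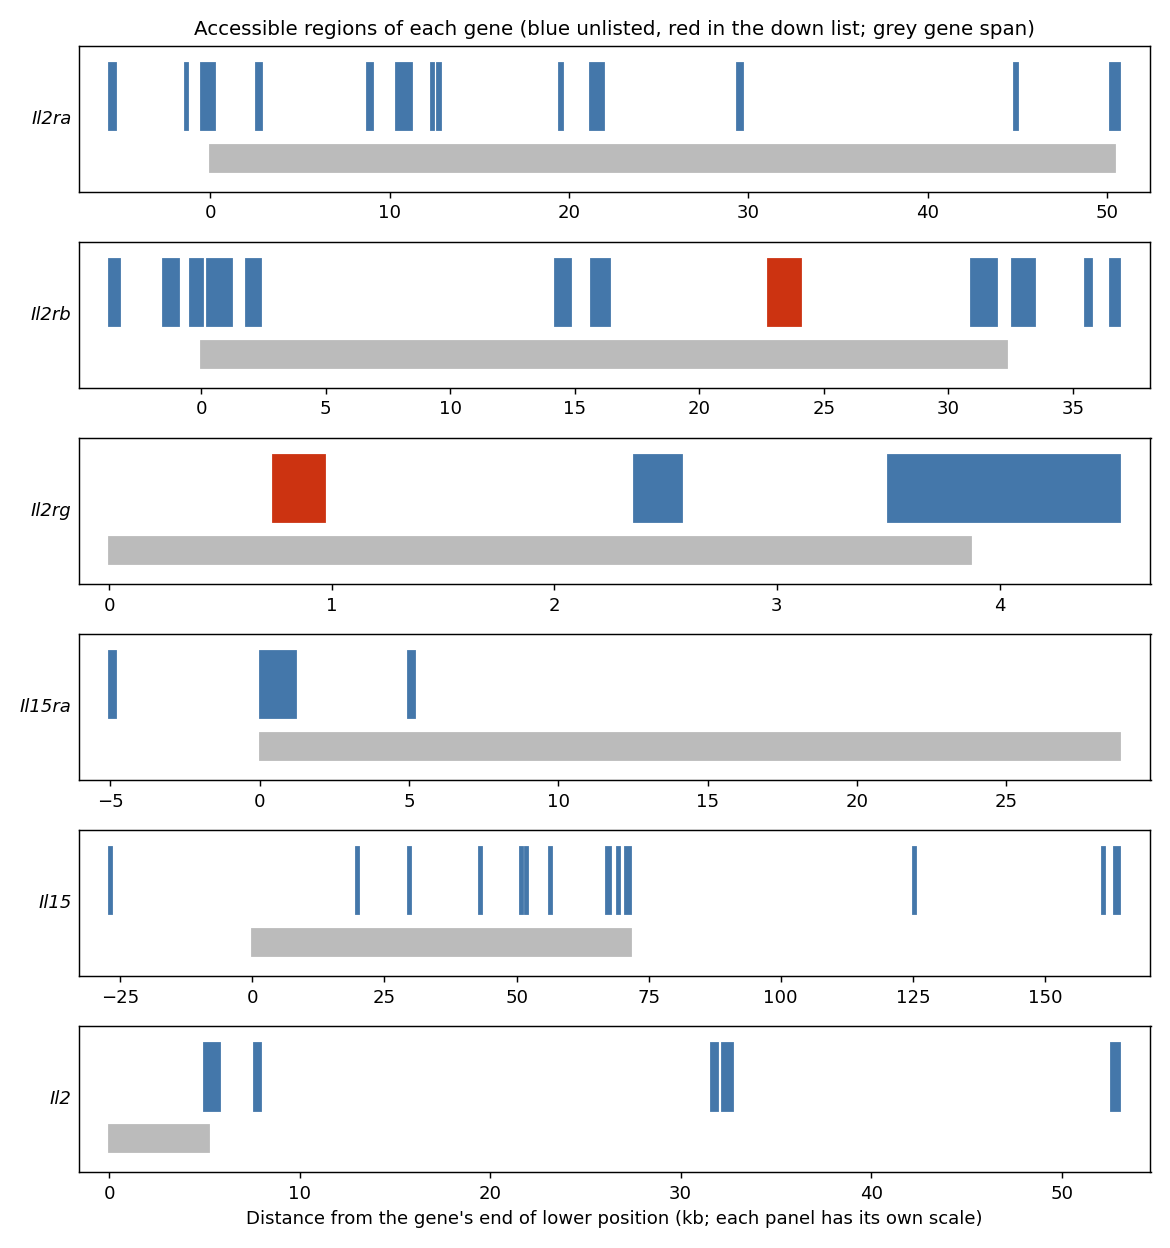
Position of the 49 accessible regions at the 6 genes, in kb from the end of the gene with the lower position. Bars are regions (the narrowest drawn slightly wider than to scale), grey boxes are gene spans, and the 2 red bars at Il2rb and Il2rg are the regions in the down list.

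Il2rb encodes the beta chain, which carries much of the receptor's signalling tail. The gene (gene ID 16185, chromosome 15, 78479256 to 78511621) had 12 regions, of which 7 overlapped it and 5 lay outside, none farther than 4.12 kb from it. The down region spanned 78502004 to 78503329 and, at 1326 bp, was the widest of the 49. It lay inside the gene, 8.29 kb from the nearer end and 22.7 kb from the other. Whether it is exonic or intronic was not annotated here. Its neighbours on either side, 774 bp and 1032 bp wide, lay 6.32 kb and 6.84 kb away and were unlisted.

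The regions of Il2rb gathered at the ends of the gene, and 5 of the 12 lay within 1000 bp of one. At the lower end they were at 78477702 to 78478349, 907 bp outside the gene, at 78478826 to 78479318, across the end itself, and at 78479483 to 78480501, 227 bp inside. At the upper end they were at 78510171 to 78511202, 419 bp inside, and at 78511823 to 78512732, 202 bp outside. All 5 were unlisted, so the listed region was apart from both ends. The widths of the 12 regions ran from 311 to 1326 bp with a median of 639 bp, the highest median of the 6 genes.

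Il2rg encodes the common gamma chain, which also serves the receptors for IL-4, IL-7, IL-9 and IL-21. The gene (gene ID 16186, X chromosome, 101264385 to 101268255) is short, 3.87 kb, and held 3 regions with none outside. The region across the start was 1041 bp wide, at 101267886 to 101268926, and was unlisted. It reached 671 bp before the start and 369 bp after it. A second unlisted region of 217 bp lay 1298 bp after the start, at 101266741 to 101266957.

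The down region of Il2rg was 230 bp wide, at 101265123 to 101265352. It lay inside the gene, 2903 bp after the start and 738 bp from the far end, so it was nearer the end of the gene than its promoter. The unlisted region on its promoter side was 1.39 kb away. On the other side the nearest region, 3.85 kb away, was an unlisted one of 876 bp assigned to Foxo4. The adjacent protein-coding gene on that side is Gm614, 0.393 kb from Il2rg, and 0 regions were assigned to it. The promoter of Il2rg was therefore open and unlisted, and the listed region was a narrow one at the opposite end.

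The 2 down regions lay far apart in width. The Il2rb region was wider than 96.8% of all regions and than 98.5% of the down list. The Il2rg region was wider than 18.7% of all regions and than 4.24% of the down list, whose median width was 537 bp. Regions of either size were seldom in the down list. Of all 5854 regions within 20% of the width of the Il2rb region, 0.957% were down. Of the 21629 within 20% of the width of the Il2rg region, 0.476% were down. The up list held 0.615% and 1.09% of these same regions.

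**Figure D2:**
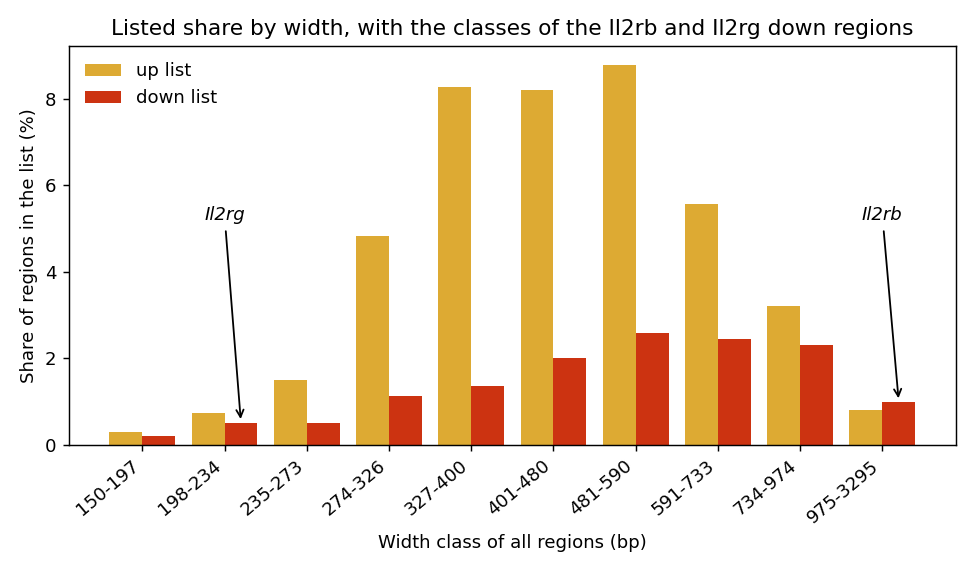
Share of all regions in the up list (yellow) and in the down list (red), in percent, in 10 width classes in bp. The arrows point to the classes of the Il2rg region (198 to 234 bp, 0.506% down) and the Il2rb region (975 to 3295 bp, 0.987% down), below the 2.59% of the class from 481 to 590 bp.

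In position the 2 were alike in that both lay inside a gene and touched neither of its ends. Of the whole down list 59.6% of regions lay inside or overlapped a gene, against 61.0% of all regions. Within 1000 bp of a gene's end lay 7.45%, as the Il2rg region did, against 16.9% of all regions. Of the 32851 starts in the promoter table, 13081, or 39.8%, were covered by any region. A down region covered 42, or 0.128% of all starts, and an up region 124, or 0.377%. These shares count the starts that no region covered.

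Other genes with the same counts were looked up to place these loci. Among 224 other genes with 12 regions, 30, or 13.4%, had at least 1 down region, and 18 had exactly 1 down and no up region as Il2rb had. The 3 closest to Il2rb in summed width (8605 bp) were Smap2 (8137 bp), Tmem243 (7501 bp) and Otulinl (7272 bp). Among 2095 other genes with 3 regions, 27, or 1.29%, had a down region, and 24 matched Il2rg in all 3 counts. The closest to Il2rg (1488 bp) were Adamtsl2 (1492 bp), Ugt1a8 (1469 bp) and Ccdc97 (1525 bp). Over all 16383 genes with a region, 5.40% had a down region and 16.1% an up region.

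Il2ra encodes the alpha chain of the IL-2 receptor, known as CD25, a marker of activated lymphocytes and regulatory T cells. The gene (gene ID 16184, chromosome 2, 11642792 to 11693194) had 13 regions, all unlisted. Of these, 11 overlapped the gene and 2 lay before its start, 1221 bp and 5261 bp away. The region across the start was 802 bp wide, at 11642276 to 11643077. The region across the other end was 581 bp wide, at 11692924 to 11693504.

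Between its ends Il2ra held 9 more regions. The widest of all 13, at 871 bp, was not at the promoter but 10.4 kb after the start, at 11653155 to 11654025. Another wide one, of 738 bp, lay 21.2 kb after the start, at 11663984 to 11664721. The other 7 were 213 to 356 bp wide. All but 2 of the 13 regions formed 1 run with gaps under 10 kb, the largest run at any of the genes.

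Il15ra encodes the alpha chain of the IL-15 receptor and lies next to Il2ra, 12.0 kb further along chromosome 2 (gene ID 16169, 11705172 to 11733985). It had only 3 regions, none listed. The widest, of 1203 bp at 11705179 to 11706381, began 7 bp inside the gene and covered both annotated starts. The others were 220 and 249 bp wide, 1 of them 4.82 kb before the gene and 1 inside it, 4.95 kb from the nearer end. Inside the gene this made 0.694 regions per 10 kb, against 2.18 at Il2ra and a median of 0.984 over the 14673 genes with a region inside. The 2 regions of Il2ra nearest to Il15ra and the 3 of Il15ra made 1 run across both genes at gaps under 10 kb.

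Il15 encodes IL-15, which myeloid and stromal cells are best known for making. The gene (gene ID 16168, chromosome 8, 82331624 to 82403252) had 13 regions, none listed. Of these, 9 overlapped it and 4 lay outside. The region across the upper end of the gene was 1053 bp wide, at 82402231 to 82403283. Inside, 2.44 kb and 3.72 kb from that end, lay regions of 264 bp and 1015 bp. The other 6 inside were 150 to 476 bp wide.

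The regions of Il15 were spread wide, in 6 runs, more than at any other of the genes. The widest of the 13, of 1134 bp, lay 91.5 kb outside the gene at 82494737 to 82495870. It was given to Il15 because no protein-coding gene lies nearer: the next on that side, Zfp330, is 360 kb from Il15. A region of 200 bp lay 89.2 kb and one of 371 bp 53.4 kb out on that side, and one of 311 bp lay 26.8 kb out on the other. When genes of any biotype competed, the region of 1134 bp was nearer to the pseudogene Gm8167. Those of 200 and 371 bp were nearer to the noncoding gene Gm25138, so Il15 kept 10 regions.

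Il2 encodes IL-2, which activated T cells are best known for making. The gene (gene ID 16183, chromosome 3, 37120713 to 37125954) is 5.24 kb long and had 5 regions, none listed. The widest, of 869 bp at 37125676 to 37126544, covered the start, reaching 590 bp before it and 278 bp after it. It was the only region that overlapped the gene. The other 4 all lay upstream of the start, at distances of 2.38, 26.4, 26.9 and 47.3 kb, with widths of 353, 374, 586 and 491 bp. They fall in the interval of 96.8 kb between Il2 and Il21, the gene of another cytokine that signals through the common gamma chain.

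**Figure D3:**
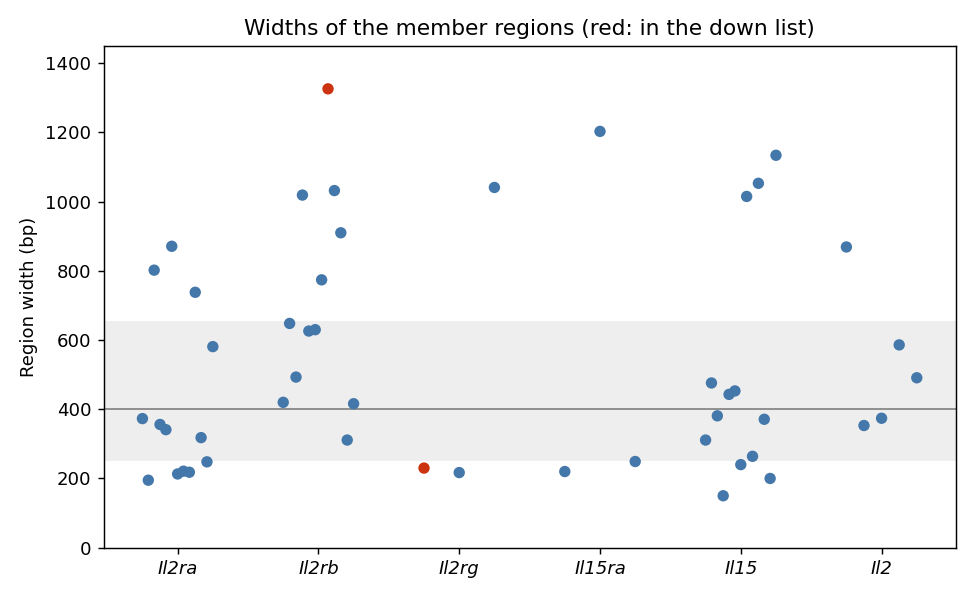
Width in bp of each of the 49 regions, in order of position within each gene, with the 2 down regions in red. The line is the median of all 91266 regions (400 bp) and the band their quartiles (252 to 653 bp), and the red points lie at 1326 bp for Il2rb and 230 bp for Il2rg.

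As a set, the 49 regions had a median width of 420 bp, with a lowest value of 150 and a highest of 1326 bp, against a median of 400 bp for all regions. Of the 49, 33 overlapped 1 of the genes, or 67.3% (95% Wilson interval 53.4 to 78.8%), against 61.0% of all regions. Within 1000 bp of a gene's end lay 12, or 24.5% (14.6 to 38.1%), against 16.9% of all regions. Both intervals include the value for all regions. All 5 annotated starts of the 4 genes were covered by a region, the 2 of Il15ra by the same one, against 39.8% of the 32851 starts in the table. That table also holds genes without any region, which these 4 are not. In number of regions Il2ra and Il15, with 13 each, exceeded 89.8% of genes with a region, and Il2rb exceeded 88.4%. Il2 exceeded 62.9%, and Il2rg and Il15ra, with 3 each, 40.5%. Per length Il2rg had the most regions inside, 7.75 per 10 kb, more than 98.7% of genes with a region inside. This rests on 3 regions in a gene of 3.87 kb, and the one across the start reaches 671 bp beyond the gene. The same number of regions gives a higher value in a shorter gene.

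The surroundings of each gene were read beside the shares over all regions, 5.61% in either list and 1.40% down. Within 500 kb of Il2rb there were 113 regions, of which 1 was up and 1, the gene's own, was down. The nearest other down region was 644 kb away. Within 500 kb of Il2rg there were 46 regions with 1 up and its own down region, and the next down region on the X chromosome was 4776 kb away. The down share was 0.885% of the regions around Il2rb and 2.17% of those around Il2rg, so a single down region in windows of this size is near the number that the share over all regions gives.

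At the other genes the nearest listed regions were in other loci. Il2ra had 4 up and 0 down regions within 500 kb among 79, the nearest 112 kb away and assigned to Pfkfb3, which encodes a regulator of glycolysis. Il15ra, which shares this neighbourhood, had its nearest up region 144 kb away. Il15 had 2 up and 0 down regions among 29 within 500 kb. Listed regions were 5.06% of those around Il2ra, 6.25% around Il15ra and 6.90% around Il15, near the 5.61% over all regions. The share was lower around Il2rg (4.35%), Il2 (2.17%) and Il2rb (1.77%). Il2 had 0 up and 1 down region among 46. That down region, of 379 bp at 37205242 to 37205620, lay 79.3 kb from Il2 and 17.1 kb from Il21, in the interval between them, and was assigned to Il21.

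The other genes of the pathway were 37, in 5 groups, with 561 regions. In this set 12 regions were up and 12 were down, 2.14% each, against 4.21% and 1.40% of all regions. At least 1 up region was found at 7 genes and at least 1 down region at 7, and 25 genes had neither. The other receptors and cytokines of the common gamma chain family had 4 down and 0 up among 47 regions. These were 2 at Il7r, which encodes the IL-7 receptor alpha chain, 1 at Il4ra, which encodes the IL-4 receptor alpha chain, and the 1 at Il21. The Il4ra region was 254 bp wide and lay inside the gene, 1044 bp from its nearer end. Il9r, Il21r, Il4, Il7 and Il9 had no listed region. All of this counts regions in lists and was not tested.

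Closer to the receptor, Jak1, which encodes the kinase bound to the beta chain, had 2 down regions inside the gene, of 885 and 945 bp. It also had 1 up region 11.3 kb outside, among 40 regions in all. Jak3, which encodes the kinase bound to the gamma chain, had 3 regions, none listed. Stat5a, Stat5b and Stat3 had none listed among their 3, 12 and 8. Among 6 feedback inhibitors and phosphatases, Socs2 had 1 up region among 14, 24990 bp from the gene. Cish, Socs1, Socs3, Ptpn2 and Ptpn6 had none listed.

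Among 9 adaptors and kinases, Pik3r1, a regulatory subunit of PI3 kinase, had 4 up regions, all outside the gene, and 1 down region inside it, among 79. Pik3cd and Shc1 had 1 up region each. Among 8 genes of survival and growth, Bcl2 had 3 down regions among 43, all inside the gene, and Myc had 2 among 74, both more than 500 kb from it. Bcl2l11, which encodes the death-promoting protein BIM, had 3 up regions among 45, all at least 63.9 kb outside the gene. Mcl1, which like Bcl2 protects cells from death, had 1 up region among 8.

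**Figure D4:**
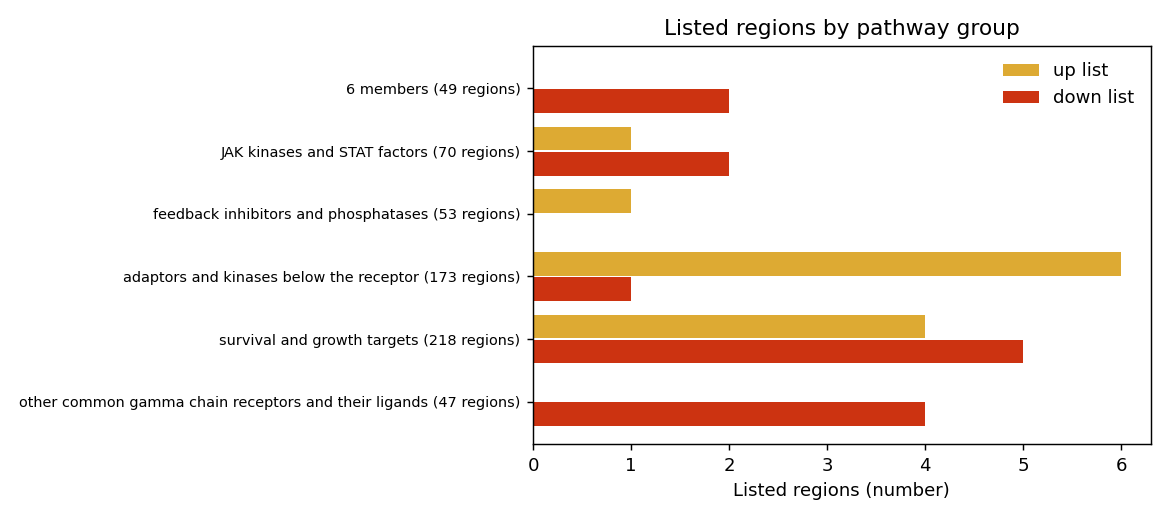
Number of regions in the up list (yellow) and in the down list (red) at the 6 member genes and at 5 groups of other pathway genes, with the number of regions of each group beside its name. Bars are numbers and not shares, and the groups differ in their number of regions. The members had 2 down regions (4.08% of theirs) and the other common gamma chain receptors and ligands 4 (8.51%), against 1.40% of all regions. Both had 0 up regions, against 4.21% of all regions. The adaptors and kinases had 6 up (3.47% of their regions) and 1 down (0.578%).

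The cell type was checked on markers. A region lay within 1000 bp of an end of 9 of 10 NK cell genes, all but Fcgr3 (Ncr1, Klrb1c, Klrk1, Klrd1, Eomes, Tbx21, Prf1, Gzma and Gzmb). The same held for 5 of 7 T cell genes, with Cd3g and Cd8a lacking one, and for 2 of 5 B cell genes, Cd79a and Blk. Of 5 myeloid genes only Cd14 had one, and over all 21883 protein-coding genes 60.6% did. A region near a gene's end may belong to a neighbouring gene, and a table of positions cannot show how many cells carried it. The listed marker regions are given beside the 1.40% down and 4.21% up over all regions, with no test. Of the 111 regions of the NK cell genes 9 were down, or 8.11%, and 0 up. These lay at 3 of the 10 genes, with 4 at Ncr1, 3 at Gzma and 2 at Klrb1c. Of the 20 regions of the T cell genes 1 was up, at Cd6, and 0 down, and of the 10 regions of the B cell genes 2 were up and 0 down. The 6 myeloid gene regions were unlisted. The part of other cells, or of a change in the share of NK cells, in these lists was not tested.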

How the data were processed

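ATAC-seq was performed on 4 samples, 2 per dose of IL-15, grouped by their titles. Per the submitters' processing notes the tools were BWA, ArchR, MACS2 and HOMER 4.11.1 and the build was mm10; their roles and settings, the pooling of samples, the differential test and its threshold are not given in the sources used here. As deposited by the authors, the list of all regions gives positions and widths in bp, and the up and down lists give positions alone. With 0 columns of values per sample, the fit of the doses set out in the design could not be made.

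Adding 1 to the starts in the full list made every listed region identical to 1 of its entries. Regions were assigned to the nearest protein-coding gene of a RefSeq table (GRCm38.p6), a tie being settled by the nearer end; that table gives no strand, so starts came from the RefSeq promoter windows (250 bases before to 50 after). Promoter windows matched 4 of the 6 members. Regions under 10 kb apart were joined into runs. Shares carry 95% Wilson intervals, and the limit for a count of 0 is 3 counts. Python 3.11.15, pandas 2.3.3 and scipy 1.17.1 were used. Assignment, motif search and runs were tested on simulated data.

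Members, gene lists and motifs were chosen with earlier results of these data known. Named regions were the listed, those within 1000 bp of a gene's end or start and the widest of each member; other regions given here were chosen after their values were seen. Of the pathway genes all with a listed region were named. The pathway and marker totals include genes that are not reported here. Genes like a member had equal numbers of regions, up regions and down regions and the 3 nearest summed widths. Alternatives changed the assignment, the least width, the match between lists, the distance to an end, the summary of width, the joining gap and the motifs.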

Additional observations from a re-analysis of the deposited data

How the results depend on the processing

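No paired analysis was possible because no column of the files belongs to a sample, so the shared numbers 1 and 2 of the replicates could not be used. No replicate could be left out and no threshold changed. The 2 down regions and 0 up regions of the 6 genes were found under the 4 alternative rules of assignment run on all 6 genes, with regions of at least 200 bp only, and under both looser overlap rules, the last fixed by the identity of the lists. Most of the others were fixed too. Both down regions lay inside their gene and were wider than 200 bp, and no other listed region lay within 50 kb of a member. Among these rules only the competition of genes of any biotype could have removed a down region. The number of member regions was 49, 33 to 71 under those rules of assignment and 47 with regions of at least 200 bp only. The 4 genes with an annotated start had 24 regions, 1 of them down, by either the nearest gene or the nearest start. The number of regions at a gene's end was 12 within 1000 bp, 7 within 100 bp and 18 within 3000 bp. The number of runs was 14 with gaps under 10 kb, 23 under 5 kb and 9 under 20 kb. Each of these numbers follows from the distance set. The counts of single genes moved with the rule. Counting every region within 50 kb, Il2rb went from 12 regions to 28, Il15ra from 3 to 12 and Il2rg from 3 to 8. Within 10 kb Il2rg had 6. Counting only regions that overlap the gene, Il2rb had 7 and Il2 fell from 5 to 1. Il2 had 2 within 10 kb and 2 when genes of any biotype competed, since 3 were nearer to the noncoding Gm36000. The 4 shorter motif cores, added after the sequences were seen, matched 4 member windows where the 7 motifs matched 1. The motif search in whole regions was not run, for lack of a genome. Depth is unknown, so no limit from it can be given.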
